A study of Mus musculus with 16 samples.

Results

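Alternative activation is the macrophage state induced by IL-4 and IL-13, and 9 genes grouped as its transcript markers were followed here across 16 B16F10 melanoma tumors. Whether IL-4 and IL-13 induce every member is not shown by these data. The members were taken by symbol from the deposited table of 18929 genes, and all 9 were found: Mrc1, Msr1, Folr2, Cd163, Clec10a, Mgl2, Chil3, Retnla and Il10. B16F10 is a mouse melanoma line, and each female C57BL/6 mouse, aged 7 to 8 weeks, received 500000 cells in the right side of the abdomen. Treatment began at a tumor volume of about 50 mm3 and lasted 9 to 11 days. Each group held 4 tumors from different mice: vehicle (corn oil with an IgG isotype control), anti-PD1 (an antibody that blocks the checkpoint receptor PD1), α-KG (α-ketoglutarate, 100 mg/kg) and α-KG + anti-PD1. Whole tumors were sequenced, so melanoma cells, leukocytes and stroma contributed to every value, and fewer cells of a type and less RNA per cell cannot be told apart. The unit is FPKM, fragments corrected for transcript length and library size, so levels can be compared between genes. Read counts were not used here, so the depth behind a value is unknown and the lowest values are the least precise.

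The receptors for IL-4 and IL-13 activate the transcription factor STAT6, which drives genes for endocytic receptors, lectins and secreted proteins in mouse macrophages. Mrc1 encodes the mannose receptor CD206, Msr1 and Cd163 encode scavenger receptors, and Folr2 encodes a folate receptor of resident-type macrophages. Clec10a and Mgl2 are neighboring genes for galactose-binding lectins, which dendritic cells also express. Chil3 and Retnla encode the secreted proteins Ym1 and RELMα, and Il10 encodes an anti-inflammatory cytokine that many leukocytes make. Such macrophages are often described as favoring tumor growth and tissue repair. Csf1r, the receptor for the growth factor CSF1, marks the macrophage lineage and served as the denominator for relative levels.

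Promoter sequence is shown for the secreted markers and for Mrc1, because Retnla and Chil3 are the classical STAT6-driven genes of the set and because Chil3 has a near-identical neighbor, Chil4. RefSeq windows for GRCm38.p6, which run from 250 bases before to 50 bases after a start site, were given for 6 of the 9 members, with 2 windows for Folr2. Capitals mark 3 motifs that were searched on both strands: TTC and GAA with any 4 bases between (the STAT6 type), TTC and GAA with any 3 bases between (other STAT factors) and GAGGAA (a core recognized by PU.1). The lines below give the 250 bases before the start site, read 5′ to 3′ on the strand of the gene.

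Retnla: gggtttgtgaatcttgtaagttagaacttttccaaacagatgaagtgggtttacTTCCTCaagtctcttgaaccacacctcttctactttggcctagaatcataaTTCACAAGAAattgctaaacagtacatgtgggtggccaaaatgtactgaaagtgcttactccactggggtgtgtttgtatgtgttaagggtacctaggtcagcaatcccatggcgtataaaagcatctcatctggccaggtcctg

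Chil3: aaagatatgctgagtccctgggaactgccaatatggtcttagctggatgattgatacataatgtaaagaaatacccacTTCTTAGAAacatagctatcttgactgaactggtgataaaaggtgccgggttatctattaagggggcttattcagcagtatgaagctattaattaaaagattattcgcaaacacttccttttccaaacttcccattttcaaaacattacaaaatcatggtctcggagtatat

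Chil4: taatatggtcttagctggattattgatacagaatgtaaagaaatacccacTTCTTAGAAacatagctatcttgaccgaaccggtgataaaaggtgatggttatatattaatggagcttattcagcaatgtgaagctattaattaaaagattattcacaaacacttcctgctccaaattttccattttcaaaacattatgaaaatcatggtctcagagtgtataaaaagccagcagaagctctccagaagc

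Mrc1: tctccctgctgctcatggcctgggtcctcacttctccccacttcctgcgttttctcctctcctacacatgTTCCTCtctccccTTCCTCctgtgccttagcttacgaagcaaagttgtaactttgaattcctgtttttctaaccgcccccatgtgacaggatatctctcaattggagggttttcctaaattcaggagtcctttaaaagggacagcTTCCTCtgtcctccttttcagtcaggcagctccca

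The Retnla stretch is chr16:48842359-48842608 on the plus strand, and it held 1 STAT6-type match at position -145 and 1 GAGGAA match at position -196, counted from the start site. The Chil3 stretch is chr3:106167565-106167814 on the minus strand, and it held a TTC and GAA pair with 3 bases between at position -172. Chil4 (chr3:106219480-106219729, minus strand) held the same letters at position -200. The stretch of Mrc1 (chr2:14229164-14229413, plus strand) held 3 GAGGAA matches, at -180, -167 and -35. Among all 32851 windows of this length, 6.95% held the STAT6-type letters, 8.3% held the other STAT pair and 28.3% held GAGGAA. Of the other members with a window, Mgl2 held 1 GAGGAA match, and Cd163 and both windows of Folr2 held none of the 3 motifs. The Chil3 and Chil4 windows were identical at 251 of 271 aligned bases (92.6%), and their longest coding transcripts at 1452 of 1538 (94.4%). Chil4 was listed at 0 in 15 of 16 tumors and at 0.06 FPKM in the remaining one, α-KG tumor 4. How reads shared by the pair were assigned is not given in the sources used here, so the split between Chil3 and Chil4 is uncertain. Clec10a and Mgl2 are also close relatives, at chr11:70166623-70170836 and chr11:70130125-70137542.

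Differences were tested on log2(FPKM + 1) with limma. A gene entered the test where 4 or more tumors had 0.5 FPKM or more, which left 12850 genes, and p was adjusted over these (Benjamini-Hochberg) with a threshold of 0.05. Of the 9 members 7 passed the filter. Cd163 and Retnla did not, and their values are given without a test. Against vehicle, all 7 tested members were higher in α-KG + anti-PD1 tumors, where 34.9% of all genes tested were higher. In α-KG tumors 5 of the 7 were higher, against 8.4% of all genes, and in anti-PD1 tumors 1 was, against 0.467%. The median log2 fold change of the tested members against vehicle was 1.25 in α-KG + anti-PD1, 1.49 in α-KG and 0.91 in anti-PD1 tumors, beside 0.15, -0.04 and 0.03 over all genes. These 3 comparisons share the 4 vehicle tumors. Csf1r itself averaged 32.6 ± 16.4 FPKM in α-KG + anti-PD1, 24.0 ± 2.49 in α-KG, 15.3 ± 3.25 in anti-PD1 and 5.21 ± 4.37 in vehicle tumors (SD, n = 4). Its log2 fold change against vehicle was 2.57 (SE 0.41) in α-KG + anti-PD1, 2.27 in α-KG and 1.65 in anti-PD1 tumors, with limma adjusted p of 0.000476, 0.00133 and 0.0654. All 12 genes of a macrophage identity list were higher in α-KG + anti-PD1, 6 in α-KG and 3 in anti-PD1 than in vehicle tumors.

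**Figure D1:**
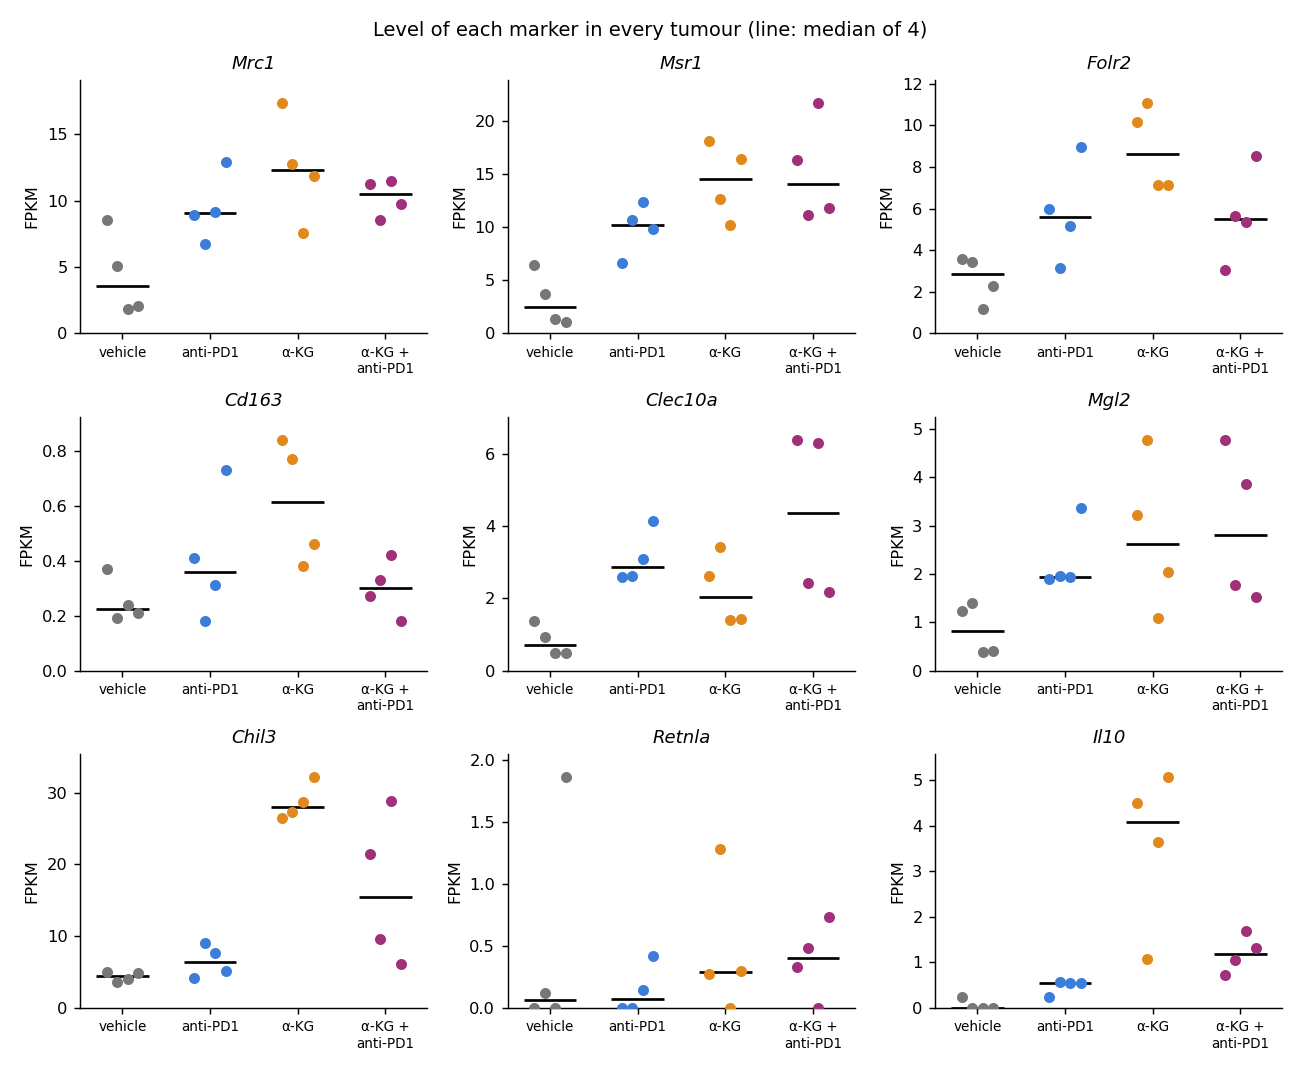
FPKM of the 9 markers on linear axes, with 1 point per tumor, 4 tumors per group and a line at the group median; each panel has its own scale. Chil3 lies between 26.52 and 32.19 FPKM in the 4 α-KG tumors, above all vehicle and anti-PD1 tumors, and Retnla has its highest point in a vehicle tumor.

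Mrc1, the mannose receptor, was at 8.53, 5.10, 1.81 and 2.03 FPKM in vehicle tumors 1 to 4. The α-KG tumors held 17.36, 12.75, 7.55 and 11.82, the α-KG + anti-PD1 tumors 11.25, 8.53, 11.48 and 9.74, and the anti-PD1 tumors 8.94, 6.72, 9.12 and 12.90. Vehicle tumors 3 and 4 were far below all others, while vehicle tumor 1 lay within the range of the treated groups. Mrc1 rose against vehicle by 1.45 in α-KG (SE 0.33, adjusted p = 0.00685) and by 1.25 in α-KG + anti-PD1 tumors (SE 0.33, adjusted p = 0.00683) on the log2 scale. The difference between α-KG + anti-PD1 and α-KG tumors was -0.21 with a 95% interval from -0.90 to 0.49 (adjusted p = 0.644).

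Msr1, a scavenger receptor for modified lipoproteins, showed the largest fold change of the members in α-KG + anti-PD1 tumors. The α-KG + anti-PD1 tumors held 16.34, 11.11, 21.69 and 11.82 FPKM and the α-KG tumors 18.09, 12.68, 10.17 and 16.45. The anti-PD1 tumors held 6.65, 10.66, 12.39 and 9.83 and the vehicle tumors 6.44, 3.75, 1.32 and 1.06. No treated tumor fell within the vehicle range, and the 3 treated groups overlapped one another. The log2 fold change against vehicle was 2.12 in α-KG + anti-PD1 (SE 0.34, adjusted p = 0.0005) and 2.06 in α-KG tumors (SE 0.34, adjusted p = 0.000706). In anti-PD1 tumors Msr1 rose by 1.56 (SE 0.34, adjusted p = 0.0483). That call was lost when any of vehicle tumors 3 and 4, anti-PD1 tumors 2, 3 and 4, the α-KG tumors or α-KG + anti-PD1 tumor 2 was left out, with fold changes from 1.30 to 1.91 over all tumors left out in turn.

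Folr2, the folate receptor, was highest in α-KG tumors, at 10.15, 11.09, 7.15 and 7.12 FPKM. Vehicle tumors were at 3.59, 3.45, 1.16 and 2.28, anti-PD1 tumors at 6.00, 3.17, 5.19 and 8.95, and α-KG + anti-PD1 tumors at 3.03, 5.67, 5.34 and 8.55. The α-KG tumors lay above every vehicle tumor, whereas α-KG + anti-PD1 tumor 1 was within the vehicle range. Folr2 rose by 1.49 in α-KG (SE 0.30, adjusted p = 0.00306) and by 0.87 in α-KG + anti-PD1 tumors (SE 0.30, adjusted p = 0.0264). The smaller rise missed the threshold without vehicle tumor 3 or 4 or without α-KG + anti-PD1 tumor 2, 3 or 4, and under quantile normalization (0.40, adjusted p = 0.293) or centering on tumor medians (0.56, adjusted p = 0.133). Cd163, a hemoglobin scavenger receptor, stayed at 0.18 to 0.84 FPKM in all 16 tumors. Its vehicle values were 0.37, 0.19, 0.24 and 0.21, and its α-KG values were 0.84, 0.77, 0.38 and 0.46, with anti-PD1 tumors from 0.18 to 0.73 and α-KG + anti-PD1 tumors from 0.18 to 0.42. With no filter on low values the α-KG difference was 0.36 (adjusted p = 0.063).

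The lectin genes Clec10a and Mgl2 divided the α-KG + anti-PD1 group. Clec10a was at 6.38, 2.43, 6.29 and 2.17 FPKM in α-KG + anti-PD1 tumors 1 to 4, and Mgl2 was at 4.77, 1.77, 3.85 and 1.53 in the same tumors. Tumors 1 and 3 were the high ones for both genes. They also held the highest Csf1r values, 41.86 and 50.80 FPKM beside 21.11 and 16.66 in tumors 2 and 4, and the highest sums of 8 dendritic cell markers, 112.4 and 115.5 beside 83.9 and 76.8 FPKM. The part of dendritic cells in these values was not tested. Vehicle tumors were at 1.36, 0.93, 0.48 and 0.48 FPKM for Clec10a and at 1.23, 1.40, 0.39 and 0.41 for Mgl2. In anti-PD1 tumors the values were 2.58, 2.63, 3.10 and 4.14 for Clec10a and 1.90, 1.95, 1.93 and 3.36 for Mgl2, and in α-KG tumors 2.63, 3.43, 1.41 and 1.43 for Clec10a and 3.21, 4.77, 1.08 and 2.03 for Mgl2. Every treated tumor exceeded every vehicle tumor in Clec10a, and for Mgl2 α-KG tumor 3 lay within the vehicle range. Against vehicle, Clec10a rose by 1.47 (SE 0.29, adjusted p = 0.00121) and Mgl2 by 1.06 (SE 0.32, adjusted p = 0.0148) in α-KG + anti-PD1 tumors. The Mgl2 rise missed the threshold without vehicle tumor 3 (adjusted p = 0.0503) and under quantile normalization (0.64, adjusted p = 0.0935). In α-KG tumors the differences of 0.81 for Clec10a and 0.97 for Mgl2 did not pass (adjusted p = 0.0677 and 0.0509), and in anti-PD1 tumors those of 1.195 and 0.85 did not pass either (adjusted p = 0.0615 and 0.207).

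Chil3, the chitinase-like protein Ym1, separated α-KG tumors from the rest of the single treatments. It was at 26.52, 27.34, 28.66 and 32.19 FPKM in α-KG tumors, against 4.95, 3.66, 3.98 and 4.86 in vehicle and 4.14, 9.05, 7.67 and 5.17 in anti-PD1 tumors. The α-KG + anti-PD1 tumors spread from near the anti-PD1 level to the α-KG level, at 21.42, 9.53, 28.80 and 6.11 FPKM. Chil3 rose by 2.47 in α-KG (SE 0.34, adjusted p = 0.000111) and by 1.49 in α-KG + anti-PD1 tumors (SE 0.34, adjusted p = 0.00294) against vehicle. It was also 2.03 higher in α-KG than in anti-PD1 tumors (adjusted p = 0.00158), a comparison in which 2.8% of all genes were higher and 2 of the 7 members were, Chil3 and Il10.

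Il10 followed the same order. It was listed at 0 in vehicle tumors 2, 3 and 4 and at 0.24 FPKM in vehicle tumor 1, and it was at 4.51, 1.07, 3.64 and 5.07 FPKM in α-KG tumors. Anti-PD1 tumors were at 0.24, 0.57, 0.54 and 0.55, and α-KG + anti-PD1 tumors at 0.72, 1.06, 1.69 and 1.32. Each of the 8 tumors that received α-KG was above all vehicle and anti-PD1 tumors. On the log2(FPKM + 1) scale, which understates changes this close to 0, Il10 was 2.00 higher in α-KG than in vehicle tumors (SE 0.26, adjusted p = 5.63e-05), 1.53 higher than in anti-PD1 tumors (SE 0.26, adjusted p = 0.00166), and 1.04 higher in α-KG + anti-PD1 than in vehicle tumors (SE 0.26, adjusted p = 0.00472).

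When anti-PD1 was added to α-KG, Il10 and Chil3 were the members that differed. Il10 fell by 0.97 (SE 0.26, adjusted p = 0.00893) and Chil3 fell by 0.985 (SE 0.34, adjusted p = 0.0315) in α-KG + anti-PD1 against α-KG tumors, where 6.47% of all genes were lower. The Chil3 fall missed the threshold without any one of the α-KG tumors or α-KG + anti-PD1 tumor 2 or 4, at values from -1.02 to -0.63. It was also lost with equal FPKM sums (-0.77, adjusted p = 0.0675), with no filter (adjusted p = 0.0509) and in a fit of the 2 groups alone (adjusted p = 0.0755). When α-KG was added to anti-PD1, Chil3 was the member that passed, at 1.04 (SE 0.34, adjusted p = 0.0484), where 14.2% of all genes were higher. This call was lost under 7 of the 8 other settings and without any of 12 tumors, with fold changes from 0.71 to 1.40. Mrc1, Folr2, Clec10a and Mgl2 differed by -0.04 to 0.27 in that comparison, and Msr1 and Il10 by 0.56 each (adjusted p = 0.26 and 0.135), none past the threshold. Il10 had an unadjusted p of 0.0435.

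The interaction is the change on adding anti-PD1 to α-KG less the change on giving anti-PD1 alone. It was below 0 for all 7 tested members, and it passed for Folr2 (-1.52, SE 0.42, adjusted p = 0.0322) and Il10 (-1.44, SE 0.36, adjusted p = 0.0217). Among all genes 3.13% had an interaction called below 0. The general macrophage genes Csf1r (-1.35, adjusted p = 0.132) and Adgre1 (-1.07, adjusted p = 0.21) also had interactions below 0, which did not pass. Relative to Csf1r on the log2(FPKM + 1) scale, the interaction was -0.17 for Folr2 and -0.09 for Il10 (limma adjusted p = 0.794 and 0.895). The Il10 differences from vehicle in α-KG + anti-PD1 and anti-PD1 tumors changed sign with the pseudocount, so its relative interaction is uncertain. Folr2 was 0.91 higher in anti-PD1 than in vehicle tumors and 0.61 lower in α-KG + anti-PD1 than in α-KG tumors, neither past the threshold alone. The Folr2 interaction missed the threshold when any of 10 tumors was left out (adjusted p up to 0.0735, without anti-PD1 tumor 4) and with no filter (adjusted p = 0.056), and the Il10 interaction passed without each of the 16 tumors. Msr1 (-1.50), Chil3 (-1.43) and Mrc1 (-1.32) had adjusted p of 0.0578, 0.0638 and 0.0754.

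**Figure D2:**
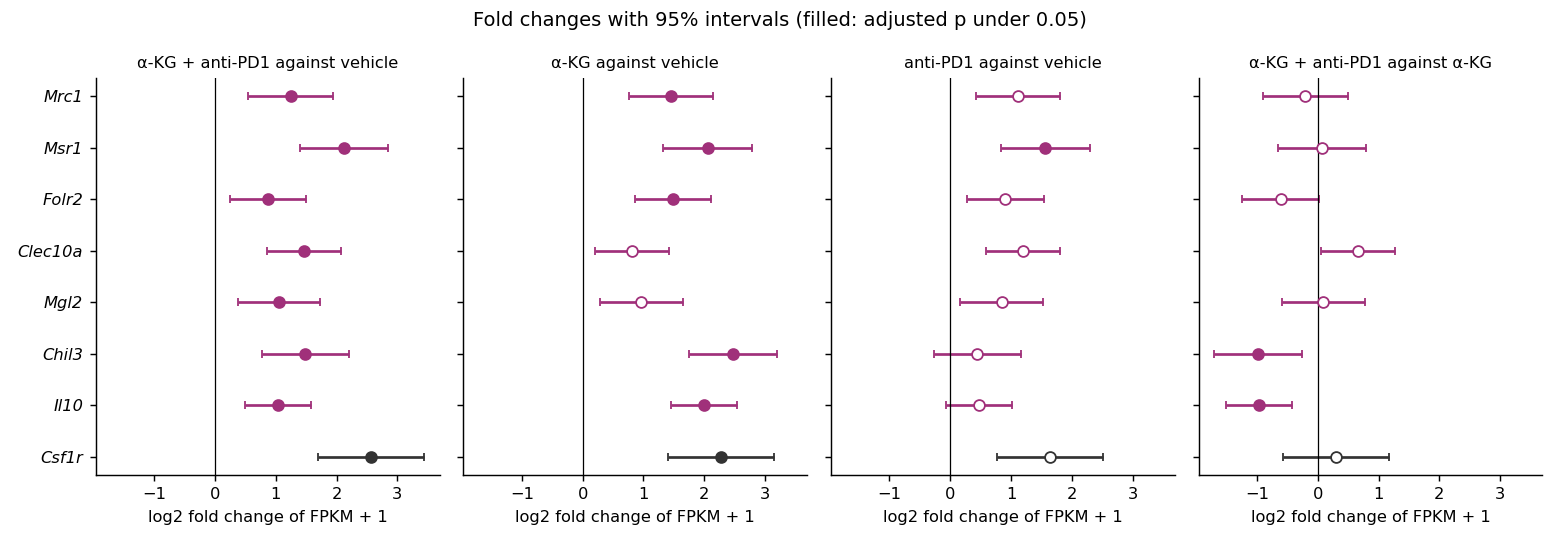
Log2 fold change of FPKM + 1 with its 95% interval for the 7 tested markers and Csf1r in 4 comparisons of 4 tumors against 4; filled points passed the limma threshold. All 7 markers pass in α-KG + anti-PD1 against vehicle, and Chil3 and Il10 lie below 0 in α-KG + anti-PD1 against α-KG.

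The rise of Chil3 and Il10 in α-KG tumors came with genes of other myeloid cells. All 8 tested genes of a list of 10 neutrophil markers were higher in α-KG than in vehicle tumors, where 8.4% of all genes were higher. The summed list was at 1084 to 2877 FPKM in α-KG tumors, against 34.5 to 113.0 in α-KG + anti-PD1, 25.8 to 106.4 in anti-PD1 and 24.4 to 42.9 in vehicle tumors. S100a8, a neutrophil calcium-binding protein, was higher by 6.04 (adjusted p = 4.89e-06), and Il1b, an inflammatory cytokine, by 6.94 (adjusted p = 1.91e-07). Chil1, a relative of Chil3, was higher by 3.77 (adjusted p = 2.59e-07), and Retnlg, a relative of Retnla that neutrophils express, by 5.27 (adjusted p = 1.4e-06). Chil3 is itself a monocyte gene, and 6 of the 7 monocyte markers, Chil3 among them, were higher in α-KG tumors. α-KG + anti-PD1 tumors 1 and 3 held 21.42 and 28.80 FPKM of Chil3 with neutrophil sums of 70.9 and 47.9 FPKM. The summed monocyte list, which includes Chil3, was at 225.4 and 262.8 FPKM in these tumors, at 81.5 and 48.3 in α-KG + anti-PD1 tumors 2 and 4, and at 104.5 to 125.3 in α-KG tumors. The part of neutrophils and monocytes in the Chil3 and Il10 levels was not tested.

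**Figure D3:**
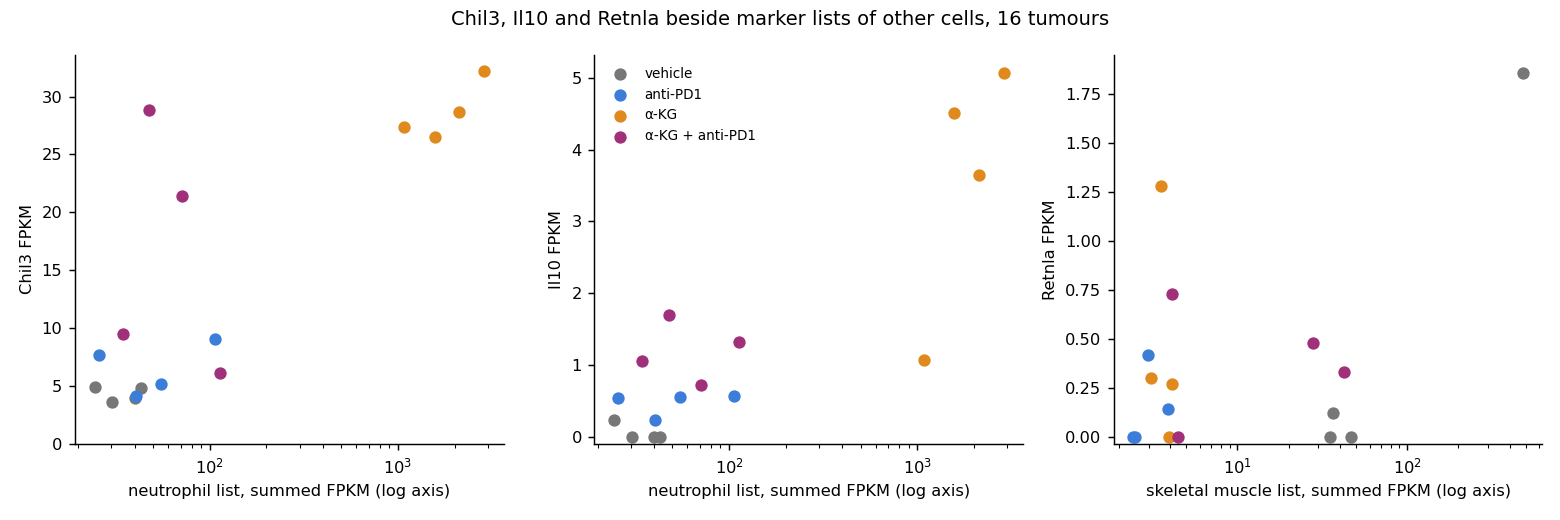
Chil3 and Il10 FPKM against the summed FPKM of 10 neutrophil markers, and Retnla FPKM against the summed FPKM of 4 skeletal muscle markers, 1 point per tumor for 16 tumors with logarithmic horizontal axes. The 4 α-KG tumors stand apart at neutrophil sums of 1084 FPKM and more, 2 α-KG + anti-PD1 tumors have high Chil3 at low sums, and the vehicle tumor with the highest Retnla has the highest muscle sum.

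Retnla, the gene for RELMα, was listed at 0 in 6 of the 16 tumors. Vehicle tumors were at 0, 0.12, 0 and 1.86 FPKM and anti-PD1 tumors at 0, 0, 0.14 and 0.42, while α-KG tumors were at 0.27, 1.28, 0 and 0.30 and α-KG + anti-PD1 tumors at 0.33, 0.48, 0 and 0.73. The groups overlapped fully, and the highest value belonged to vehicle tumor 4, the tumor with the lowest Msr1. That tumor also held 480.0 FPKM of 4 skeletal muscle markers, against 35.0 to 46.5 in the other vehicle tumors and 2.44 to 42.3 in the treated tumors, and 0.44 FPKM of the adipocyte hormone Adipoq, which reached 0.26 at most in the treated tumors. Adipoq is 1 gene of a list of 6 adipocyte markers. The summed list was at 12.13 FPKM in vehicle tumor 4, within the 6.58 to 25.23 of the treated tumors. α-KG tumor 2, with 1.28 FPKM of Retnla, held 3.57 FPKM of the muscle markers. The part of surrounding tissue in the Retnla value was not tested.

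Relative to Csf1r, the order of the groups changed. Mrc1 stood at 77.1%, 84.6%, 104.0% and 101.0% of the Csf1r FPKM in vehicle tumors and at 26.9%, 40.4%, 22.6% and 58.5% in α-KG + anti-PD1 tumors. The α-KG tumors were at 63.7%, 52.1%, 33.9% and 54.2%, and the anti-PD1 tumors at 78.0%, 42.4%, 47.2% and 87.8%. No α-KG or α-KG + anti-PD1 tumor reached the vehicle range, so a higher Mrc1 level went with a lower Mrc1 share of Csf1r. As a percentage of Adgre1, another macrophage gene, Mrc1 in α-KG tumor 4 (112.0%) lay within the vehicle range of 109.2% to 169.2%. The α-KG + anti-PD1 tumors, at 46.0% to 78.2% of Adgre1, stayed below that range. For the share of Csf1r, the difference from vehicle (91.7 ± 12.9%, SD, n = 4) was -54.6 percentage points in α-KG + anti-PD1 (37.1 ± 16.2%, n = 4) and -40.7 in α-KG tumors (51.0 ± 12.4%, n = 4), each with p = 0.0286 in an exact two-sided permutation test, the smallest p that 4 against 4 allows. These tests were chosen after the data were seen, and their p was not adjusted over the 9 members and 6 comparisons examined. The lowest Mrc1 shares were in α-KG + anti-PD1 tumors 1 and 3, whose monocyte list sums were 225.4 and 262.8 FPKM. Tumors 2 and 4 of that group held 81.5 and 48.3 FPKM. The part of monocytes in the Csf1r level and in the shares was not tested.

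Fitted with limma after Csf1r was subtracted from every gene on the log2(FPKM + 1) scale, Mrc1 was lower in α-KG + anti-PD1 than in vehicle tumors (-1.32, SE 0.46, adjusted p = 0.00402), and 6 of the 7 tested members were called lower. This count says little about the members, because 96.0% of all genes were called lower as well, with a median of -2.42 over all genes and -1.32 over the members. With nearly all genes called, the adjustment over genes changed little. All genes of this fit also share the error of Csf1r, so its limma values may overstate the precision that 4 tumors per group give. By the exact permutation test on this scale, Mrc1, Mgl2 and Clec10a reached the smallest possible p (0.0286, n = 4 each), without adjustment. Folr2, Il10 and Chil3 missed 0.05 in that test. The 11 other genes of a 12-gene macrophage identity list (Adgre1, Cd68, C1qa, Mertk and others) had a median of -0.36, and 2 of them were called lower. In α-KG tumors 2 members were called lower, Clec10a (-1.46) and Mgl2 (-1.31), beside 96.8% of all genes and 5 of the 11 identity genes. With the identity list as denominator neither passed (-0.57 and -0.41, limma adjusted p = 0.143 and 0.291). Mgl2 also missed the threshold with a pseudocount of 0.1 (-0.98, limma adjusted p = 0.0686) and in the exact permutation test on the log2 scale (p = 0.0571). Mrc1 was not called in α-KG tumors (-0.82, adjusted p = 0.0733). In anti-PD1 tumors 2 members were called lower, Chil3 (-1.20) and Il10 (-1.17), beside 95.9% of all genes and 2 of the 11. Without vehicle tumor 3 or 4, the calls of Clec10a and Chil3 in α-KG + anti-PD1 (-0.93 to -0.78) and of Il10 in anti-PD1 tumors (-0.94 and -0.89) were lost, as was that of Chil3 in anti-PD1 tumors without vehicle tumor 4 (-0.90). With Csf1r as a covariate in place of the subtraction, no member was called against vehicle in α-KG + anti-PD1, and Mrc1 was at -0.29 (adjusted p = 0.998).

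**Figure D4:**
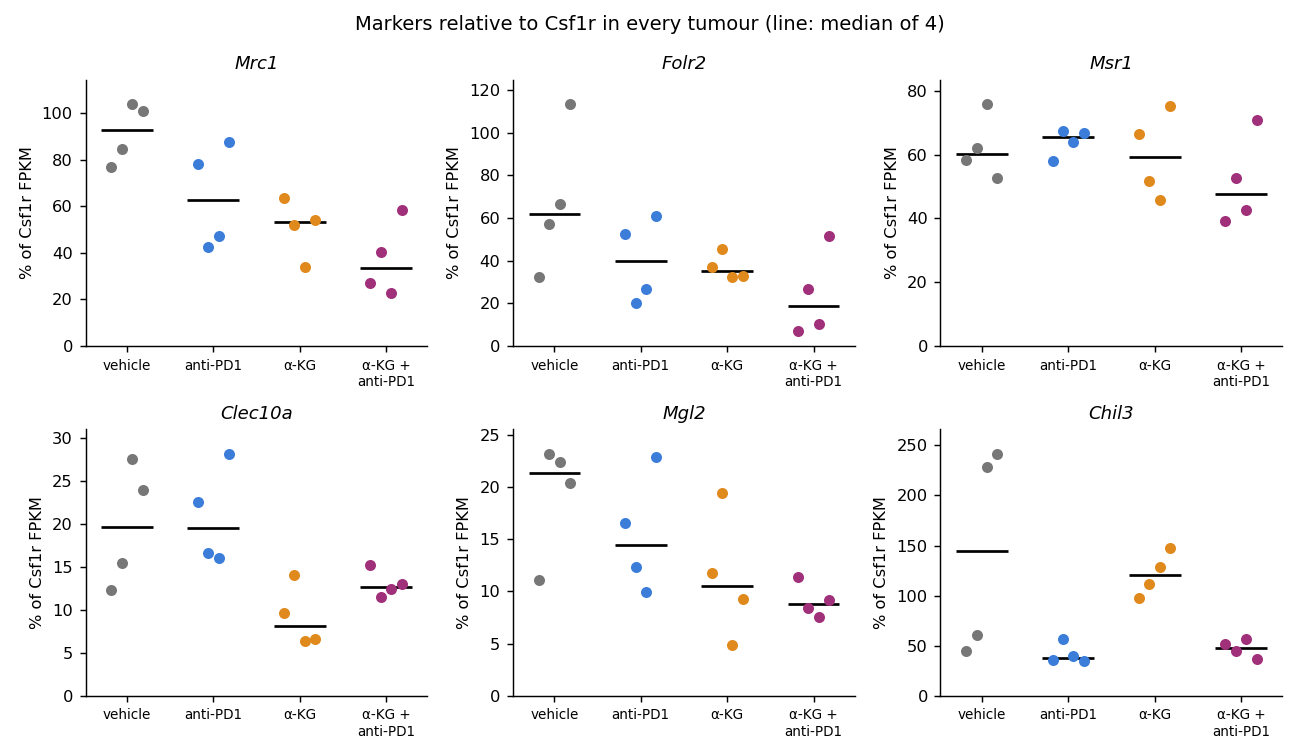
FPKM of 6 markers as a percentage of the Csf1r FPKM of the same tumor on linear axes, with 1 point per tumor and a line at the median of 4. Mrc1 lies at 77.1% and above in vehicle and at 58.5% and below in α-KG + anti-PD1 tumors, while Msr1 overlaps in all 4 groups.

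Msr1 had a similar range of shares of Csf1r in every group. The share was 51.3 ± 14.3% in α-KG + anti-PD1, 59.8 ± 13.5% in α-KG, 64.1 ± 4.27% in anti-PD1 and 62.3 ± 9.87% in vehicle tumors (SD, n = 4). All 4 groups overlapped, and the limma difference of -0.44 between α-KG + anti-PD1 and vehicle tumors had a 95% interval from -1.34 to 0.45. Adgre1, which encodes the macrophage marker F4/80, was also between 48.2% and 74.8% of Csf1r in all tumors. Cd68 and C1qa of the identity list were less steady. Cd68 stood at 934.4% to 1763% of Csf1r for vehicle, 683.4% to 758.4% for α-KG and 583.2% to 725.4% for the combination, without overlap with vehicle. C1qa stood at 904.0% to 1137% for vehicle, 344.4% to 615.1% for α-KG and 843.6% to 1076% for the combination, which overlapped vehicle. Anti-PD1 tumors overlapped vehicle for both genes.

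Folr2 and the lectins had lower mean shares in the combination than in vehicle tumors. Folr2 was at 32.5%, 57.2%, 66.7% and 113.4% of Csf1r in vehicle tumors and at 7.24%, 26.9%, 10.5% and 51.3% in α-KG + anti-PD1 tumors, and the groups overlapped (-1.70, limma adjusted p = 0.000204, exact permutation p = 0.0571 on the same scale). Mgl2 was at 19.3 ± 5.57% in vehicle and 9.14 ± 1.64% in α-KG + anti-PD1 tumors, and vehicle tumor 1, at 11.1%, lay within the range of the combination (exact permutation p = 0.0571 for the percentage and 0.0286 on the log2 scale, n = 4 each). Clec10a was at 19.8 ± 7.14% and 13.04 ± 1.59% (exact permutation p = 0.143 for the percentage and 0.0286 on the log2 scale, n = 4 each). Its log2 difference was -1.10 (limma adjusted p = 0.0171) and -0.65 (adjusted p = 0.226) with a pseudocount of 0.1. Between the treated groups, Clec10a had a lower share in α-KG + anti-PD1 than in anti-PD1 tumors (20.8 ± 5.70%, exact permutation p = 0.0286, n = 4 each). The α-KG tumors, at 9.14 ± 3.59%, were also below the anti-PD1 tumors (exact permutation p = 0.0286) and did not differ from the combination (p = 0.114 by the same test). Mgl2 was at 11.35 ± 6.14% in α-KG tumors.

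Chil3 per Csf1r was highest in vehicle tumors 3 and 4, at 228.7% and 241.8%, where Csf1r was at its lowest, 1.74 and 2.01 FPKM. Vehicle tumors 1 and 2 were at 44.8% and 60.7%, so the vehicle group spanned the α-KG tumors and overlapped the other groups. Among the treated groups, α-KG tumors were at 97.3% to 147.5%, above the 36.7% to 56.7% of the α-KG + anti-PD1 tumors and the 35.2% to 57.1% of the anti-PD1 tumors. The difference of α-KG from each of these groups had exact permutation p = 0.0286 (n = 4 each), while limma gave 1.40 against anti-PD1 and -1.28 for α-KG + anti-PD1 against α-KG, with adjusted p of 0.194 and 0.168.

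Il10 moved in opposite directions on the 2 relative scales. As a plain percentage of Csf1r it was 2.17%, 0%, 0% and 0% in vehicle tumors and 16.5%, 4.37%, 16.3% and 23.2% in α-KG tumors. The α-KG + anti-PD1 tumors held 1.72% to 7.92% and the anti-PD1 tumors 2.09% to 3.74%. On the log2(FPKM + 1) scale the same gene was called lower in α-KG + anti-PD1 than in vehicle tumors (-1.53, adjusted p = 0.00127), and with a pseudocount of 0.1 the difference was 0.33 (adjusted p = 0.6). The sign of the Il10 difference thus depends on the pseudocount. Cd163 stood at 3.35%, 3.15%, 13.8% and 10.5% in vehicle tumors and at 0.645% to 1.56% in α-KG + anti-PD1 tumors, all from values under 1 FPKM.

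No member passed limma's relative test between the treated groups or in the interaction. The number of members at an unadjusted p under 0.05 was 1 for α-KG + anti-PD1 against anti-PD1, 3 against α-KG, 2 for α-KG against anti-PD1 and 0 for the interaction, and by the exact permutation test without adjustment it was 2, 1 and 2 for the 3 pairs of groups. At the adjusted threshold, which no member passed, 0.156%, 2.37%, 0.864% and 53.5% of all genes were called in either direction in these 4 tests. Unadjusted p was not counted over all genes, so the unadjusted member counts have no share to be set against.

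Upstream of the markers, receptor genes were measured well above the ligands. Il4 was listed at 0 in all vehicle, anti-PD1 and α-KG tumors and reached 0.18 FPKM in the combination, and Il13 reached 0.08 FPKM at most. Of 11 genes for the ligands, receptors and signaling of IL-4 and IL-13, 8 were tested. By limma 8 were higher in α-KG + anti-PD1, 3 in α-KG and 0 in anti-PD1 tumors against vehicle, beside 34.9%, 8.4% and 0.467% of all genes. In anti-PD1 tumors 4 had an unadjusted p under 0.05, which was not counted over all genes. Il2rg, the common cytokine receptor chain, rose by 3.22 in α-KG + anti-PD1 tumors, and Il4ra, the IL-4 receptor, rose by 2.04 there and by 2.62 in α-KG tumors. Stat6 differed by 0.25 in α-KG + anti-PD1 (adjusted p = 0.0101) and by 0.09 in α-KG tumors (adjusted p = 0.44). The receptors sit on many leukocytes, and 6 of 6 leukocyte markers were higher in both of these groups.

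A further list held genes tied to alternative activation. Of 18 tested, 14 were higher in α-KG + anti-PD1, 7 in α-KG and 4 in anti-PD1 tumors against vehicle, beside 34.9%, 8.4% and 0.467% of all genes, and the list medians were 0.90, 0.63 and 0.38. Tgm2, a transglutaminase, rose by 3.02, 2.94 and 2.15 in these groups. Arg1, which breaks down arginine, was at 21.01 to 49.14 FPKM in α-KG + anti-PD1, 35.0 to 76.77 in α-KG, 37.34 to 64.61 in anti-PD1 and 6.31 to 20.65 in vehicle tumors. It rose by 1.96 in anti-PD1 (adjusted p = 0.0334), 2.08 in α-KG (adjusted p = 0.00107) and 1.15 in α-KG + anti-PD1 tumors (adjusted p = 0.0184), with an interaction of -2.89 (SE 0.51, adjusted p = 0.0036). Beside Il10, all 5 genes of its receptor pathway were higher in α-KG + anti-PD1 and 4 in α-KG tumors, and Socs3, its feedback inhibitor, rose by 1.61 and 3.01.

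A list of classical activation genes, which mark the opposite state, was also counted. All 10 tested of 12 were higher in α-KG + anti-PD1 and 8 in α-KG tumors against vehicle, and none was in anti-PD1 tumors by limma. Of all genes 34.9%, 8.4% and 0.467% were higher in these comparisons. In anti-PD1 tumors 6 had an unadjusted p under 0.05, which was not counted over all genes. The α-KG tumors also held the high neutrophil sums given above, and the part of neutrophils in these genes was not tested. Il1b and Nos2, the inducible nitric oxide synthase, rose by 2.35 and 3.12 in α-KG + anti-PD1 and by 6.94 and 3.83 in α-KG tumors. Cxcl9, a chemokine induced by interferon gamma, rose by 3.44 in α-KG + anti-PD1 tumors and was at 0.09 in α-KG tumors (adjusted p = 0.935).

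Folr2 is also read as a resident-type macrophage gene. Of 7 tested among 10 genes of that type, 4 were higher in α-KG + anti-PD1, 5 in α-KG and 1 in anti-PD1 tumors than in vehicle, where 34.9%, 8.4% and 0.467% of all genes were higher, and the defining markers Lyve1, Timd4 and Vsig4 stayed at or below 0.81 FPKM. F13a1, a clotting factor subunit, rose by 0.87 in α-KG + anti-PD1 and 2.08 in α-KG tumors, and Pf4, a platelet and macrophage chemokine, rose by 1.44 in α-KG tumors. Both were lower in α-KG + anti-PD1 than in α-KG tumors (-1.21 and -0.81, adjusted p = 0.00706 and 0.034).

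The genes most like each member, by Pearson's r of log2(FPKM + 1) over the 16 tumors, differed among members. These values are descriptions over tumors that share the same treatments. Mrc1 was closest to Dab2 (r = 0.963) and Stab1 (0.962), Msr1 to Abca1 (0.988) and Slc11a1 (0.986), and Folr2 to Gas6 (0.941) and Npl (0.882). For Clec10a the closest were Arhgap22 (0.973) and Atp6v0d2 (0.966), and for Mgl2 Selenop (0.914) and Man1a (0.905). Chil3 was closest to Pilrb2 (0.974) and Sorl1 (0.970), and Il10 to Mefv (0.969) and Slc13a3 (0.964). Retnla was closest to Lum (0.790) and Fabp3 (0.789), genes of connective tissue and muscle, and Cd163 had no gene above 0.839 (4930447C04Rik).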

How the data were processed

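RNA was measured in 16 whole tumors, 4 in each of 4 groups taken from the labels. Per the labels, oligo-dT selected the mRNA, dUTP marked the second strand, and a DNBSEQ machine read the libraries. The submitters' processing notes name HISAT, Bowtie2 and mm10. The program that made the FPKM values and its annotation are not given in the sources used here. The authors deposited FPKM with 2 decimals, and depth is unknown. FPKM sums were 514180 to 654772 per tumor, and hemoglobin genes made up 2.09% to 2.23% of them in α-KG + anti-PD1 and 4.23% to 22.3% in other tumors. From these values, log2(FPKM + 1) was fitted with limma 3.58.1 (R 4.3.3, eBayes with a trend), 1 mean per group over all 16 tumors, and 12850 genes were tested. The relative fit subtracted Csf1r from 12849 genes, which then share its error, so the limma p of that fit may be too small. Exact permutation tests used scipy 1.17.1. The labels do not say whether tumors were processed in batches. The comparisons with vehicle share 4 tumors. Simulated data with known changes were used to test the fit. Genes named are the members, Csf1r, their paralogs, the pair moving most in each list, markers of other cells, and the genes most like each member. Other named list genes (Stat6, Cxcl9, Chil1, Arg1, Pf4) were chosen after their values were seen. The members and lists were chosen with earlier results of these data known. Alternatives changed the pseudocount (0.1), filter, scaling, denominator, tumors fitted and replicate block, and left out each tumor. A relative fit with no filter and the permutation tests were added after seeing the data.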

Additional observations from a re-analysis of the deposited data

Results flagged for a closer look

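In 6 of the 72 group values examined, 1 tumor lay far from the other 3, and chance gives about 1 in 20. That rate assumes normally spread values, which groups with tumors at 0 do not have. Each group was examined in FPKM and as a percentage of Csf1r, so the 72 are not independent. Retnla in vehicle tumor 4 and Il10 in vehicle tumor 1 were counted on both scales. Mgl2 was at 3.36 FPKM in anti-PD1 tumor 4, beside 1.90 to 1.95 in the other anti-PD1 tumors. Retnla was at 1.86 FPKM, or 92.5% of Csf1r, in vehicle tumor 4, the tumor with the high muscle markers. Il10 was at 0.24 FPKM, or 2.17% of Csf1r, in vehicle tumor 1 and at 0 in the other vehicle tumors. In anti-PD1 tumor 1 Il10 was at 0.24 FPKM, below 0.54 to 0.57 in the others.

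In absolute level, the effect of anti-PD1 differed with and without α-KG for Il10 (interaction -1.44, limma adjusted p = 0.0217) and Folr2 (-1.52, adjusted p = 0.0322). Relative to Csf1r, neither interaction passed.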

How the results depend on the processing

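The counts of 7 members higher in α-KG + anti-PD1, 5 in α-KG against vehicle and 2 in α-KG against anti-PD1 stayed within 1.5 times under the alternatives run, with 5 to 7, 5 to 7 and 2 when 1 tumor was left out. The 1 member higher in anti-PD1 than in vehicle tumors became 3 with a pseudocount of 0.1, and 0 with no filter, with equal FPKM sums, with only the groups compared and with the replicate block (0 to 3 with 1 tumor left out). The 1 member higher in α-KG + anti-PD1 than in anti-PD1 tumors became 0 with a pseudocount of 0.1, no filter, quantile normalization, centering, equal sums without hemoglobin, only the groups compared and the replicate block (0 to 1). For α-KG + anti-PD1 against α-KG the 2 became 1 with no filter and with only the groups compared (1 to 3). The 2 interactions became 1 with no filter, 4 with quantile normalization and 5 with centering (1 to 4).

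Relative to Csf1r, the 6, 2 and 2 members called against vehicle in α-KG + anti-PD1, α-KG and anti-PD1 became 0, 0 and 0 with Csf1r as a covariate, where Clec10a (0.14), Il10 (0.79), Folr2 (0.62) and Chil3 (0.24) in α-KG + anti-PD1 and Il10 (0.32) in anti-PD1 tumors changed sign. With a pseudocount of 0.1, Il10 changed sign in α-KG + anti-PD1 (0.33) and anti-PD1 tumors (0.12), and the anti-PD1 count became 1. The identity list as denominator gave 1 in α-KG, a member other than Clec10a and Mgl2, which both lost their calls there. No filter, chosen after seeing the data, gave 4 in α-KG and 4 in anti-PD1. The exact permutation test, also chosen after seeing the data, gave 3 in α-KG + anti-PD1 and 1 in anti-PD1. With 1 tumor left out the counts were 4 to 6, 2 to 4 and 0 to 4.

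Between treated groups no member was called. For α-KG + anti-PD1 against α-KG the identity list gave 3, the covariate 2 and the permutation test 1 (0 to 2 with 1 tumor left out). For α-KG against anti-PD1, Adgre1 as denominator gave 1, the identity list 2, the covariate 2, only the groups compared 4 and the permutation test 2 (0 to 1). For α-KG + anti-PD1 against anti-PD1 the permutation test gave 2 (0 to 1), and for the interaction the covariate gave 1. Except where a value or construction shows it, the cause was not tested.

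The replicate numbers do not pair tumors: deviations of tumors with the same number correlated at -0.642 to 0.411 (median 0.00689), and the block ended the 2 calls named above, Msr1 in anti-PD1 (adjusted p = 0.0935) and Chil3 in α-KG + anti-PD1 against anti-PD1 (adjusted p = 0.0604), and changed no other call that passed. With unknown depth, the precision of Cd163, Retnla and Il10 cannot be given, and 4 tumors per group limit every comparison.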
